A study of Oryza sativa Japonica Group with 4 samples.

Results

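MPK5 and CIGR2 are rice genes that respond to elicitors, molecules such as fungal chitin fragments that switch on plant defence. MPK5 encodes a mitogen-activated protein (MAP) kinase and is called BIMK1 in older work. CIGR2, chitin-inducible gibberellin-responsive protein 2, encodes a transcription regulator of the GRAS family. Both were chosen by name, as 2 genes of the 17905 measured, and every probe set annotated to either gene alone was taken. That gave 1 probe set for MPK5 (LOC4332475) and 1 for CIGR2 (LOC4343735), so neither gene has a further probe set against which its value could be checked.

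RNA came from roots of the rice variety TNG67 (ssp. japonica). The seedlings were germinated for 3 days in the dark, kept for 2 weeks in a hydroponic solution lacking nitrogen, and used at an age of 17 days. Control roots (−N) were moved to solution without nitrogen and treated roots (+Glu) to 2.5 mM glutamate, both for 30 min, with 2 biological replicates per group and 1 Affymetrix GeneChip Rice Genome Array per replicate. All 4 arrays thus came from nitrogen-starved plants, and the glutamate solution was the one difference between the groups that the labels give. How many seedlings made up a replicate is not given in the sources used here.

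In a MAP kinase cascade, a MAP kinase kinase phosphorylates and switches on a MAP kinase, which then phosphorylates transcription factors and other proteins. In rice, chitin is sensed at the cell surface by the binding protein CEBiP with the receptor kinase CERK1, and the signal reaches MAP kinases within minutes. MPK5 is known as a kinase that holds back pathogenesis-related genes while raising tolerance of abiotic stress. GRAS proteins include the DELLA repressors of gibberellin signalling, and CIGR1 and CIGR2 were named for transcripts that accumulate after both chitin elicitor and gibberellin.

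The arrays differed among themselves. The median intensity was 20.1 and 23.9 in the −N replicates and 19.3 and 23.9 in the +Glu replicates. At least 2-fold differences separated both −N arrays at 4136 of 57258 probe sets and both +Glu arrays at 1874. Same-numbered arrays of the 2 groups were that far apart at fewer probe sets, 1066 for replicate 1 and 1338 for replicate 2. On this measure arrays were more alike by replicate number than by group. The 8 root genes checked ranged in intensity from 8.74 to 9275, summing per array to 9725 and 15018 in −N and to 10840 and 12280 in +Glu. Their highest, the silicon transporter gene Lsi1, was at 7085 and 9275 in −N and made up most of each sum. SCR1, the lowest, was at 12.0 and 10.1 in −N and below the median of every array. The 4 genes of green tissue summed to 11736 and 16473 in −N and to 15476 and 13127 in +Glu, mostly from the chlorophyll-binding protein genes CAB2R and LHCP, while RBCS1 stayed between 4.01 and 4.91 on the 4 arrays. Sums of both kinds overlapped between the groups, and their part in the results was not tested. In bulk roots, a change in transcript per cell and a change in the share of cells that hold the transcript cannot be told apart.

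MPK5 was about 2-fold higher after glutamate, with both treated arrays above both controls. Its intensity was 1074 and 1112 in −N and 1977 and 2370 in +Glu. The −N replicates lay 1.04-fold apart and the +Glu replicates 1.20-fold, whereas the lower +Glu array was 1.78-fold above the higher −N array. The group means were 1093 ± 26.9 in −N and 2174 ± 278 in +Glu (SD, n = 2).

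CIGR2 also separated the groups, with more spread among its controls. Its intensity was 408 and 563 in −N and 934 and 995 in +Glu. Here the −N replicates were 1.38-fold apart and the +Glu replicates 1.07-fold, and the lower +Glu array was 1.66-fold above the higher −N array. The group means were 485 ± 109 in −N and 965 ± 43.3 in +Glu (SD, n = 2). For both genes replicate 1 was the lower array of its pair in each group.

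**Figure D1:**
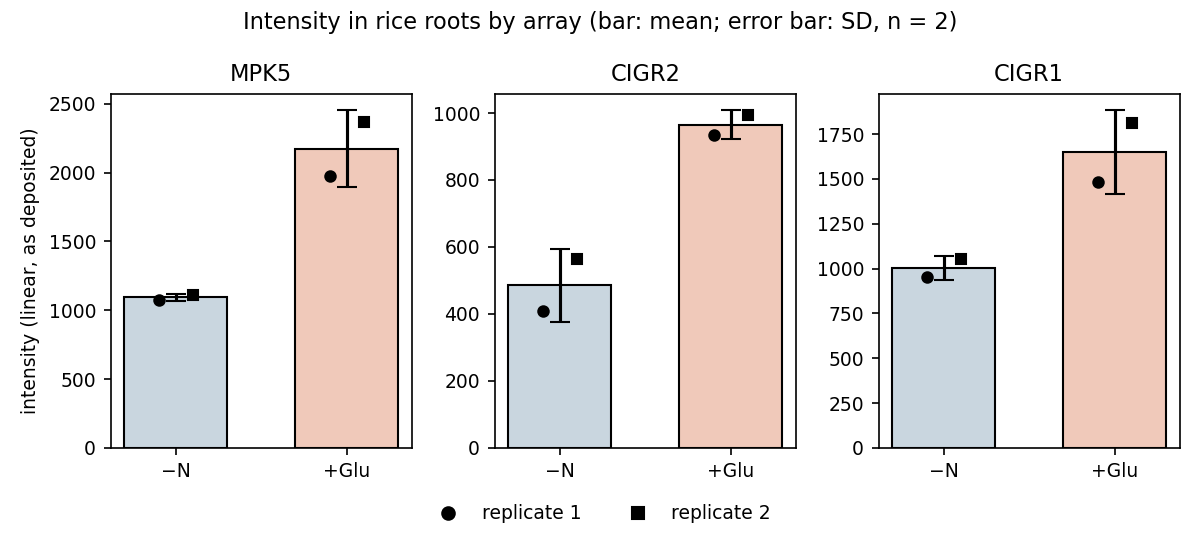
Intensity (linear, as deposited) of MPK5, CIGR2 and the related gene CIGR1 on each array, with the group mean as a bar from 0, the SD (n = 2) as an error bar and each replicate as a point. For each gene both +Glu points lie above both −N points, and the −N points of CIGR2 (408 and 563) are farther apart in proportion than those of MPK5 (1074 and 1112).

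Glutamate and control arrays were compared with limma's moderated test on log2 intensities, and p-values were adjusted by the Benjamini-Hochberg method over all 17905 genes. The log2 fold change of MPK5 was 0.99 with a standard error of 0.22, a 1.98-fold difference with a 95% interval from 1.35-fold to 2.92-fold (limma: unadjusted p = 0.00564, adjusted p = 0.723). That of CIGR2 was 1.01 with a standard error of 0.25, a 2.01-fold difference with an interval from 1.30-fold to 3.12-fold (limma: unadjusted p = 0.00881, adjusted p = 0.735). Neither gene passed an adjusted p of 0.05, nor did any other gene in limma (0 of 17905, or 0%), while 682 genes were higher and 67 lower at an unadjusted p under 0.05 in limma. An exact two-sided permutation test over the arrays gave p = 0.333 for each gene, which is the smallest value that 2 arrays against 2 allow.

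The cutoffs in the study's methods, at least 2-fold with an unadjusted p under 0.05, were applied here to limma's values. CIGR2 was past the cutoff and MPK5 just short of it, so 1 of the 2 genes was called, against 1.68% of all genes called as higher. The study's own list of genes induced by glutamate holds both genes, and it reports induction above 2-fold by qRT-PCR for the listed genes. The lower direction held 0.0447% of all genes. Without regard to p, 1.9% of all genes were at least 2-fold higher. The groups did not overlap, with +Glu the higher, for 2 of the 2 genes and for 14.9% of all genes. Among all genes ordered by log2 fold change CIGR2 stood at place 334 and MPK5 at place 351, so that 1.86% and 1.95% of genes had a larger value. As both genes were singled out with results of these arrays already known, these shares describe where they lie and do not test them.

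**Figure D2:**
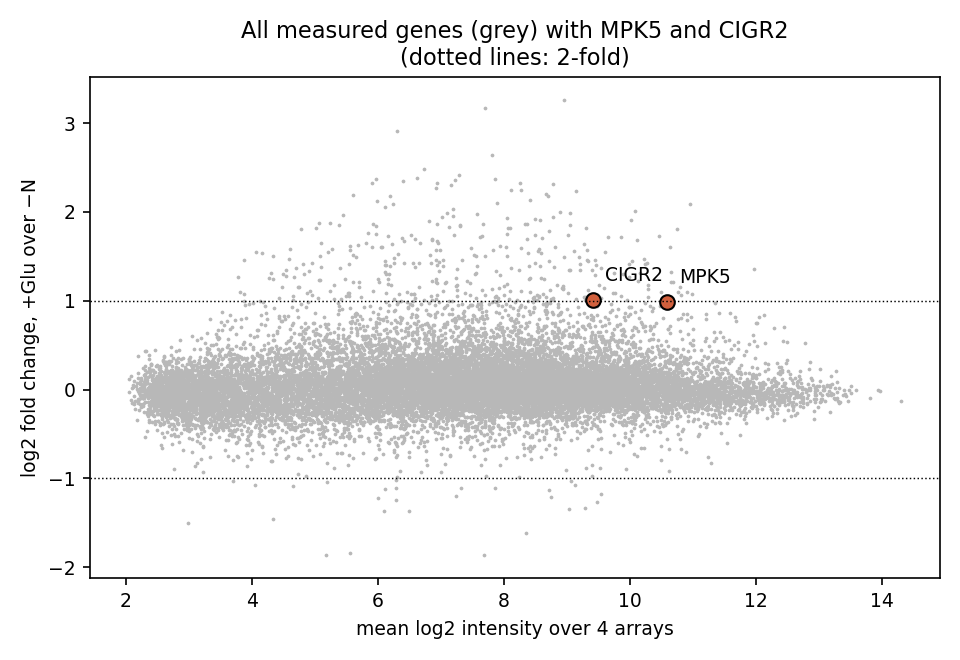
Log2 fold change (+Glu over −N) against mean log2 intensity over the 4 arrays for the 17905 genes (grey), with MPK5 and CIGR2 in orange and dotted lines at 2-fold in either direction. The orange points sit on the upper dotted line, at 0.99 and 1.01, in the sparse upper edge of the cloud.

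Since both genes lie at the 2-fold line, the side on which they fell depended on single arrays and on the scaling. Without +Glu replicate 2 the log2 fold change of MPK5 was 0.86 with an unadjusted p of 0.0785 from limma, and that of CIGR2 was 0.96 with an unadjusted p of 0.0651. Without −N replicate 1 CIGR2 was at 0.78 (unadjusted p = 0.0187 from limma) and MPK5 at 0.96. MPK5 reached 2-fold when each array was centred on its median (1.02), and also on leaving out −N replicate 2 (1.01) or +Glu replicate 1 (1.12). CIGR2 was below 2-fold after quantile normalization (0.94) and with a pseudocount of 16 (0.98). Without −N replicate 2 the adjusted p of CIGR2 from limma was 0.0107, in a fit that called 562 genes. In that fit the lone −N array was taken to vary as the +Glu arrays do, and MPK5 and CIGR2 had the same standard error of 0.33, against 0.22 and 0.25 with all arrays, so the value does not rest on the spread of CIGR2 itself. In every setting run both genes kept a positive log2 fold change, from 0.78 to 1.24. As neither gene's groups overlapped, only quantile normalization and median centring could have changed the sign.

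**Figure D3:**
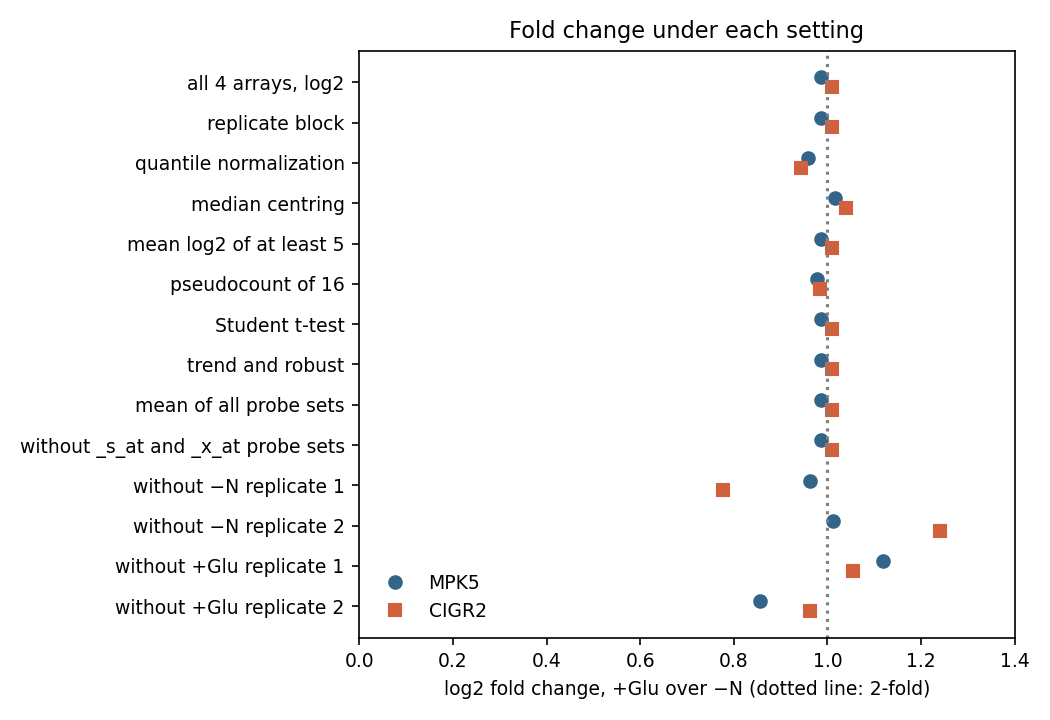
Log2 fold change of MPK5 (circles) and CIGR2 (squares) on the horizontal axis, with all 4 arrays and under each of 13 other settings. MPK5 ranges from 0.86 to 1.12 and CIGR2 from 0.78 to 1.24 around the dotted 2-fold line, and the widest shifts come from leaving out an array.

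The fold changes of MPK5 and CIGR2 were close to each other on average but not array by array. Between arrays of the same replicate number, MPK5 was 1.84-fold higher in replicate 1 and 2.13-fold in replicate 2. CIGR2 went the other way, at 2.29-fold and 1.77-fold. The difference of their log2 fold changes, MPK5 minus CIGR2, was −0.31 in replicate 1, 0.27 in replicate 2 and −0.02 over all arrays (exact two-sided permutation p = 1), and with 4 arrays a difference of this size between the genes could not be resolved. The replicate numbers name arrays and are not known to pair them.

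CIGR1, the sister gene named together with CIGR2, had intensities of 955 and 1053 in −N and of 1485 and 1814 in +Glu. It was 1.64-fold higher, with a 95% interval from 1.10-fold to 2.44-fold (unadjusted p = 0.0241, adjusted p = 0.961 from limma). Both treated arrays were above both controls for CIGR1 too. The log2 fold change of CIGR2 exceeded that of CIGR1 by 0.56 in replicate 1, 0.04 in replicate 2 and 0.30 over all arrays (exact two-sided permutation p = 0.333, the smallest possible).

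SLRL1, a GRAS repressor of gibberellin responses that resembles the rice DELLA protein, was at 108 and 112 in −N against 166 and 162 in +Glu, a 1.49-fold difference (unadjusted p = 0.0362 from limma). SLR1, the rice DELLA protein itself, was at 426 and 519 in −N against 471 and 441 in +Glu, so its groups overlapped (0.970-fold). Of the 7 GRAS genes that could be matched by name, 3 (CIGR2, CIGR1 and SLRL1) were higher on each +Glu array than on either −N array and 0 were lower on each, against 14.9% and 10.1% of all genes. CIGR2 was chosen with its result known, and with it left out the count was 2 of 6. These counts describe the list and do not test it. The count of 3 was 5 without −N replicate 2, where 10350 of all 17905 genes separated in that way. Those 3 also had an unadjusted p under 0.05, against 3.81% of all genes in the higher and 0.374% in the lower direction. The other 4, among them SHR1 and SCR1, named because their Arabidopsis counterparts pattern the root ground tissue, ranged from −0.17 to 0.00 on the log2 fold change scale. Of these, SCR1 was dim, below the median of every array. The median over the 7 genes was 0.00 and that over all genes 0.03, while without −N replicate 2 the median of the 7 was 0.42.

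Among the 15 measured MAP kinase genes, MPK5 had the largest log2 fold change and was the one with an unadjusted p under 0.05, so 1 of 15, where 3.81% of all genes were higher at that p. The other 14 lay between −0.22 and 0.43 on the log2 fold change scale, with a median of 0.06. MPK6 (LOC4349225) came next at 1.34-fold, with 522 and 623 in −N and 703 and 835 in +Glu (unadjusted p = 0.123 from limma). MPK10, at 1.20-fold (unadjusted p = 0.277), was the third MAP kinase gene whose groups did not overlap with +Glu the higher, and in 0 of the 15 was +Glu the lower without overlap. These 3 of 15 stand near the 14.9% of all genes with +Glu higher without overlap, and the 0 beside 10.1% with it lower, so the count is not a result about MAP kinases. MPK6 and MPK10 were named after their values were seen. The count of 3 became 5 with each array centred on its median, where the count over all genes was 3859. It became 10 without −N replicate 2 and 8 without +Glu replicate 1. Over all genes the same omissions took the count from 2673 to 10350 and 6890.

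The 3 MAP kinase genes that followed MPK5 in mean signal did not separate the groups. MPK14 was at 831 and 1520 in −N against 894 and 1301 in +Glu. MPK7 was at 658 and 978 in −N against 841 and 1162 in +Glu, with a fold change of 1.23. MPK1 (LOC4340170), listed as MAPK6 too and known as the counterpart of the Arabidopsis defence kinase MPK6, was at 751 and 879 in −N against 781 and 889 in +Glu, a 1.03-fold difference with a standard error of 0.23 on the log2 scale. In each of these 3 genes replicate 2 was the higher array of its group, and the step between replicates was larger than the step between groups. The −N arrays of MPK5, by comparison, lay 1.04-fold apart.

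**Figure D4:**
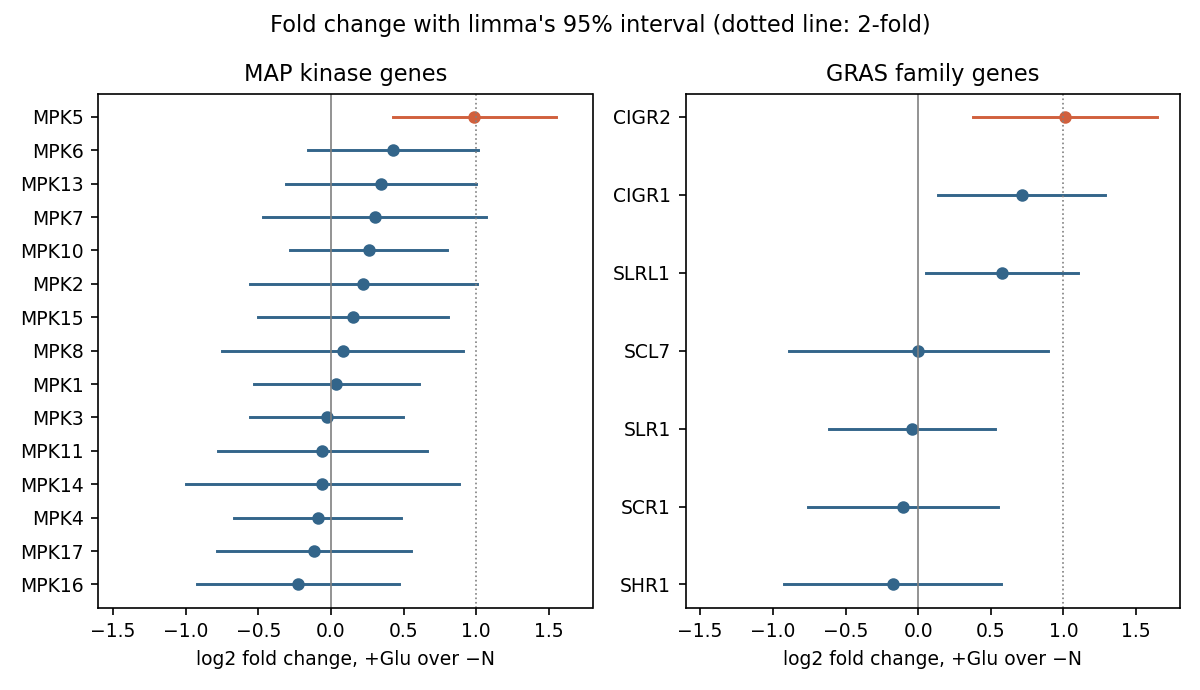
Log2 fold change (+Glu over −N, horizontal axis) with limma's 95% interval for the 15 MAP kinase genes (left) and the 7 GRAS family genes (right), MPK5 and CIGR2 in orange. The intervals of MPK5, CIGR2, CIGR1 and SLRL1 lie above 0, and those of the other 18 genes include it.

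One step upstream, a single MAP kinase kinase gene could be matched by name. MKK1, which in rice is also listed as MEK1, was at 1689 and 1686 in −N against 2355 and 2618 in +Glu, 1.47-fold higher (unadjusted p = 0.0434, adjusted p = 1 from limma). Its control arrays were nearly equal, as those of MPK5 were, and each treated array was above them. No MAP kinase phosphatase and no other kinase of the cascade was identified by name, so the cascade is covered here in its middle and last steps alone.

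The list for chitin and elicitor perception holds receptors of the chitin signal, and also small GTPase and chaperone genes. Its counts and median are therefore not about receptors alone. CEBiP, which binds chitin, was at 182 and 226 in −N against 171 and 212 in +Glu. CERK1 (LOC4346173), its partner kinase, was at 296 and 525 in −N against 377 and 557 in +Glu. RLK10, a second gene listed under the name CERK1, was at 141 and 180 in −N against 117 and 164 in +Glu. In these genes, as in several MAP kinases, replicate 2 was higher than replicate 1 in both groups. CEBiP and CERK1 are named here for their role, and RLK10 for the shared name, outside the rule on mean signal.

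Of the 17 genes in that list 2, the small GTPase genes Rac2 and Rac4, separated the groups with +Glu the higher, and 0 did so with +Glu the lower. Over all genes the shares were 14.9% and 10.1%, so 2 of 17 is near the background. Without −N replicate 2 the first count was 11, without +Glu replicate 1 it was 8, and with the mean of all probe sets it was 1. In the same settings 10350, 6890 and 2650 of all 17905 genes separated the groups in that way. Rac2 was at 73.0 and 54.5 in −N against 113 and 105 in +Glu (1.73-fold, unadjusted p = 0.0212, adjusted p = 0.931 from limma), and Rac2 and Rac4 were named after their values were seen. Rac1, named for its role as the GTPase best known in rice immunity, overlapped, with 70.7 and 121 in −N and 84.7 and 131 in +Glu. The members with the highest mean signal, the chaperone genes Hsp90 and SGT1 and the GTPase genes Rac5 and Rac3, had fold changes between 0.960 and 1.06. Over the 17 genes the median log2 fold change was −0.03, against 0.03 over all genes, and went from −0.20 without −N replicate 1 to 0.21 without −N replicate 2. Past the 2-fold threshold at an unadjusted p under 0.05 were 0 of the 17, where 1.68% of all genes were higher.

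Genes of gibberellin synthesis and response, the other input for which CIGR2 is named, included 6 of 16 genes that separated the groups with +Glu the higher and 2 with +Glu the lower, against 14.9% and 10.1% of all genes. The count of 6 was 11 without −N replicate 2, where 10350 of all 17905 genes separated with +Glu the higher. CIGR2 was the one past the 2-fold threshold, where 1.68% of all genes lay, and 3 (CIGR2, CIGR1 and SLRL1) had an unadjusted p under 0.05, against 3.81% of all genes in the higher direction. The receptor gene GID1 was at 1619 and 1480 in −N against 1441 and 1658 in +Glu, a 0.998-fold difference. The median of the 16 log2 fold changes was 0.20. It was 0.07 without −N replicate 1, 0.10 without +Glu replicate 2, 0.35 without −N replicate 2, 0.36 without +Glu replicate 1, 0.12 after quantile normalization and 0.47 when cross-hybridising probe sets were omitted. That omission also took genes left without a probe set off the list, so the 0.47 is over fewer than 16 genes. These 16 genes include the 4 GRAS genes CIGR1, CIGR2, SLR1 and SLRL1 already described. CIGR2, chosen with its result known, is among the 6 that separated and the 3 with an unadjusted p under 0.05. Those counts describe the list and do not test it.

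The list of defence outputs, which lie downstream of elicitor signalling, held 39 genes. At an unadjusted p under 0.05, 6 were at least 2-fold higher and 0 lower, against 1.68% and 0.0447% of all genes. They were the chitinase genes Cht2 (3.46-fold), Cht6 (3.34-fold) and Cht11 (2.57-fold), the phytoalexin synthase gene KSL4 (2.47-fold), the phenylalanine ammonia-lyase gene PAL06 (2.14-fold) and the transcription factor gene WRKY71 (2.12-fold). The list's median log2 fold change was 0.25, and it was 0.39 without +Glu replicate 2 and 0.44 with a mean log2 of at least 5. That filter takes the dim members, KSL4 among them, off the list, so the 0.44 is over fewer genes. KSL4 was dim, at 25.5 and 13.0 in −N against 47.6 and 42.4 in +Glu. In 17 of the 39 genes the groups did not overlap with +Glu the higher, and in 2 with +Glu the lower, against 14.9% and 10.1% of all genes. The list was drawn up with earlier results of these data known, and the study already names chitinase genes as induced. These shares therefore describe the list and do not test it. PBZ1, a pathogenesis-related protein gene of the PR10 family, did not separate the groups, with 4388 and 2921 in −N and 4694 and 3879 in +Glu (1.19-fold, unadjusted p = 0.414 from limma). NH2, a relative of the salicylic acid regulator NH1, was at 1240 and 1280 in −N against 1537 and 1895 in +Glu (1.35-fold, unadjusted p = 0.107 from limma). PAL, another phenylalanine ammonia-lyase gene and the member with the highest mean signal, had a fold change of 0.980. After adjustment over all genes 0 members of any list passed in limma.

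**Figure D5:**
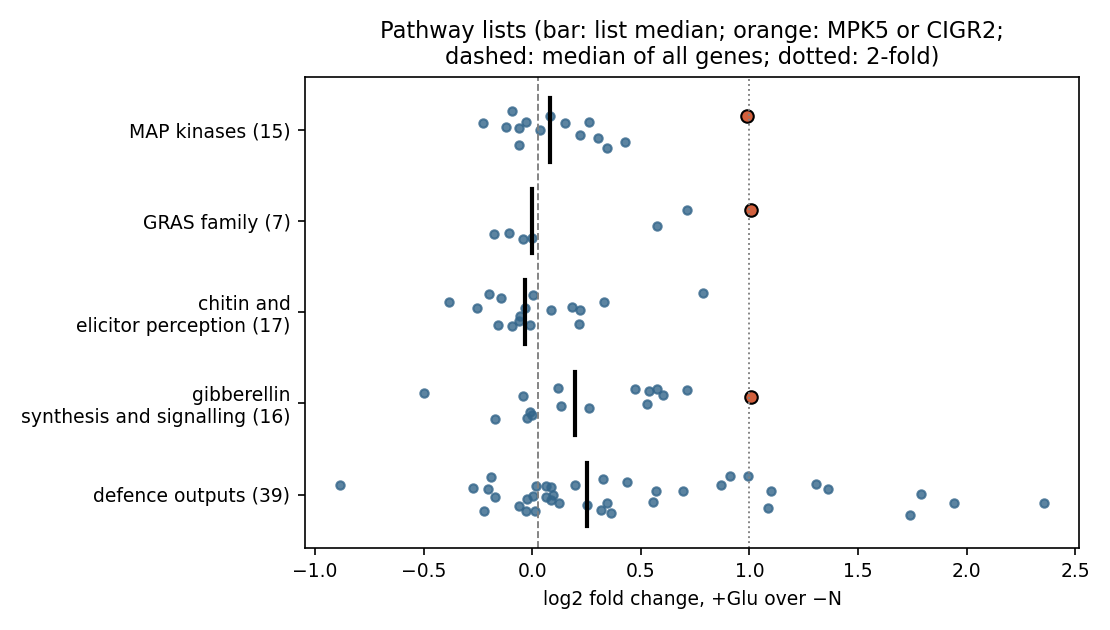
Log2 fold change (+Glu over −N) of every gene in 5 lists, 1 point per gene with a vertical spread for visibility, the list median as a black bar, the median of all genes (0.03) as a dashed line and 2-fold as a dotted line. MPK5 and CIGR2 (orange) are at the right end of their families, and defence outputs reach farther right, to 2.36 for WRKY76, named after its values were seen, whose −N arrays were far apart at 286 and 15.4.

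The genes nearest to each member in pattern were sought among the 2457 other genes with a name, by the root mean square difference of log2 values centred on each gene's own mean over the 4 arrays. Nearest to MPK5 was PP2C78, a protein phosphatase 2C gene, with a difference of 0.035 and intensities of 118 and 115 in −N and 210.2 and 245 in +Glu. The chitinase gene Cht3 (0.039), the calmodulin-like gene CML24 (0.046), the phosphatase gene PP2C59 (0.049) and the ammonium transporter gene AMT2-3 (0.053) followed. PP2C59 and AMT2-3 were dim, with −N intensities of 10.1 and 10.7 for PP2C59 and of 13.3 and 12.4 for AMT2-3, below the array medians.

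Nearest to CIGR2 was BI-1, the gene of the Bax inhibitor 1 protein known to restrain cell death, at a difference of 0.035. BI-1 was at 1637 and 2131 in −N against 3563 and 3774 in +Glu, a 1.96-fold difference (limma: unadjusted p = 0.00813, adjusted p = 0.733). Its −N replicates differed in the same direction and by a similar proportion as those of CIGR2. The arginine decarboxylase gene ADC2 (0.087), the NAC transcription factor gene NAC071 (0.108), the chitinase gene Cht1 (LOC4342115, 0.119) and PIN5 (0.121), of the auxin carrier family, followed at a larger distance. Among the same genes CIGR2 was the 35th nearest to MPK5, at a difference of 0.158. With 4 arrays such an order describes these arrays, and the fold changes of the neighbours are part of what selected them.

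The genes next to MPK5 and CIGR2 on their chromosomes, taken by position after the values of the members were known, did not separate the groups. APX1, an ascorbate peroxidase gene before MPK5 in the gene table, was at 4906 and 5593 in −N against 5524 and 5850 in +Glu (1.09-fold, unadjusted p = 0.608 from limma). LOC4332476, which follows MPK5, was at 1317 and 1242 in −N against 1290 and 1418 in +Glu. WRKY9, which follows CIGR2, was at 380 and 543 in −N against 391 and 509 in +Glu, so its groups overlapped (0.982-fold), although its −N replicates stood in the same order as those of CIGR2. The gene before CIGR2 has no value here.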

How the data were processed

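The deposited values are linear intensities, from 3.15 to 21379, that the authors made for each array. GCOS and RMA are named, without versions, in the submitters' processing notes, and their settings are not stated. The deposited table held 57381 probe sets. After 123 Affymetrix controls were left out, log2 was taken with no pseudocount or filter. Of 57258 probe sets, 22436 had 1 gene in the array annotation, 95 several and 34727 none. Where a gene had several probe sets, the one with the highest mean intensity stood for it. Names came from the synonyms that RefSeq lists for assembly ASM3414082v1. There were 17905 genes, 2458 of them with a name.

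+Glu minus −N was tested with limma 3.58.1 in R 4.3.3 (lmFit, eBayes, two-sided, Benjamini-Hochberg adjustment), without a block. The fit was first tested on simulated arrays in which 200 genes had been changed. Those changes were larger than the ones of MPK5 and CIGR2 and the noise was independent between arrays. The simulation therefore does not say how often a change of their size would be found. Precision is limited by the number of arrays. The labels call the replicates biological without naming separate cultures, so the p-values measure the spread between these 4 arrays, which may be technical in part. Figures were drawn with Python 3.11.15 and matplotlib 3.10.9.

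The members and lists were chosen with earlier results of these data known. Lists were matched by gene name, and 21 hits were removed by name because a synonym belonged to another gene. Named in the text are the members, the 4 genes of each list with the highest mean signal, CIGR1 and the 5 nearest genes of each member. List genes past the 2-fold threshold at an unadjusted p under 0.05 are named too. Other genes are marked where they appear. The alternatives were a replicate block, leaving out each array, quantile normalization, median centring, a mean log2 of at least 5, a pseudocount of 16, Student's test with equal variances, trend and robust settings, the mean of all probe sets, and omission of probe sets that can bind several transcripts.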

Additional observations from a re-analysis of the deposited data

How the results depend on the processing

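MPK5 and CIGR2 had a positive log2 fold change in all 13 settings, but only quantile normalization and median centring could have changed the sign. Those gave 0.96 and 1.02 for MPK5 and 0.94 and 1.04 for CIGR2. The block, the filter on mean log2, Student's test, trend and robust settings and both probe-set choices could not move the estimates of 0.99 and 1.01. Each gene has 1 probe set, and these settings leave its 4 values and group means as they are. Leaving out 1 array or adding the pseudocount could not reverse the sign, because neither gene's groups overlapped. MPK5 reached 2-fold after median centring (1.02), and with 1 array left out it ranged from 0.86 to 1.12. CIGR2 fell short of 2-fold after quantile normalization (0.94) and with the pseudocount (0.98), it had an unadjusted p of 0.0507 at 1.01 with Student's test, and it ranged from 0.78 to 1.24 with 1 array left out. The adjusted p of CIGR2 was 0.0107 to 1.00 with 1 array left out and that of MPK5 0.0624 to 1.00. With the replicate number as a block the log2 fold changes were the same, 0.99 and 1.01, and the adjusted p from limma was 0.194 for both genes. The deviations of same-numbered arrays from their group means correlated at 0.55 over probe sets. Same-numbered arrays were also 2-fold apart at fewer probe sets than the arrays of a group. Both are hints from the data that the number pairs arrays, while the labels give only a shared number. Genes at least 2-fold higher numbered 301, 105 with Student's test and 196 to 618 with 1 array left out. Genes at least 2-fold lower numbered 8, 15 with the block, 14 after quantile normalization, 3 with the pseudocount, 4 with Student's test and 14 to 252 with 1 array left out. Genes at an adjusted p under 0.05 numbered 0, 1 after median centring and 0 to 604 with 1 array left out. Genes with both +Glu arrays above both −N arrays numbered 2673, and 3390 to 10350 with 1 array left out, where fewer arrays have to separate. The cause of the other shifts was not tested. The median of the 15 MAP kinase genes was −0.10 to 0.26 and that of the 7 GRAS genes 0.02 to 0.42 with 1 array left out, and 0.29 for the GRAS genes with a mean log2 of at least 5. That filter takes SCR1 off the GRAS list, so the 0.29 is over fewer genes. How far dim probe sets stand above background was not tested. MPK5 and CIGR2 lie far above the array medians.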
